A study of Homo sapiens with 18 samples.

Results

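The 34 genes described here copy DNA or open the way to S phase. They were chosen by name, with earlier results of these data known, and matched by symbol to the 63677 Ensembl identifiers of the count tables. All 34 were found, and all 34 passed the filter on low counts that left 15179 genes for testing. They fall into 5 roles: 10 genes of origin recognition and licensing, 5 of helicase activation, 9 of priming, the sliding clamp and lagging strand joining, 4 of deoxynucleotide supply, and 6 regulators of the step from G1 to S.

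Cells copy their DNA in a fixed order. In G1 the origin recognition complex, CDC6 and CDT1 load the ring of MCM2 to MCM7 onto DNA, and in S phase CDC45, the GINS complex and MCM10 turn that ring into a moving helicase. E2F factors, held back by the RB protein until cyclin-dependent kinases release them, drive many of the genes for these proteins, and loss of serum or amino acids is known to hold many cultured cells in G1.

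The cells were HAP1, a near-haploid human line derived from chronic myeloid leukaemia. The lines were the parental WT, ATG7KO, which is labelled as lacking the autophagy enzyme ATG7, and RB1CC1KO/FIP200KO, which is labelled as lacking the scaffold of the autophagy-starting ULK1 complex. Each line was grown in IMDM with 10% heat-inactivated fetal calf serum, called full medium below, or was moved for 6 h to Earle's Balanced Salt Solution (EBSS), a salt and glucose solution without serum or amino acids. Each of the 6 groups had 3 libraries of poly(A) RNA, which the labels call independent biological replicates. Each genotype is 1 line, so an effect of the deletion and any other difference of that line from WT cannot be told apart.

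In 16 libraries between 11994110 and 19073798 reads were counted to genes, against 4892072 in the shallowest, ATG7KO EBSS replicate 3, and 26005942 in the deepest, replicate 2 of RB1CC1KO after EBSS. The lowest count of a member in any library was 98 reads (CCNE1) and the highest was 24085 (MCM7). ATG7 stood at 14.2 to 16.8 CPM (counts scaled to library size) in WT and 3.68 to 4.51 CPM in ATG7KO in full medium, and at 14.5 to 17.8 and 9.97 to 11 CPM after EBSS. ATG7 RNA was thus lower in every ATG7KO library than in any WT library of the same medium, but by less after EBSS, and the counts do not show whether ATG7 protein was absent. RB1CC1 was not lower in its knockout: 94.2 to 115 CPM in WT and 147 to 171 CPM in the RB1CC1KO libraries in full medium, and 210 to 231 and 251 to 280 CPM after EBSS. Those libraries are therefore called RB1CC1KO-labelled. Of listed haematopoietic, fibroblast and epithelial markers, GATA1 and DCN were at 0 in all libraries. PTPRC, SPI1 and CD34 had 6, 9 and 23 reads over the 18 libraries together. Others were expressed, and 4 of 8 haematopoietic, 4 of 7 fibroblast and 4 of 6 epithelial markers passed the filter. In full medium TAL1 had means of 37.3, 9.92 and 51.5 CPM in WT, ATG7KO and RB1CC1KO-labelled cells. In the same order, COL1A1 had 23.3, 20.2 and 18.7 CPM and PDGFRA 20.9, 32.3 and 2.89 CPM. KRT18 had 63.7, 48.8 and 57.6 CPM. The summed level of the haematopoietic list moved with the medium and the line, at 63.7 to 73.5 CPM in WT, 22.1 to 22.9 CPM in ATG7KO and 71.7 to 79.5 CPM in RB1CC1KO-labelled cells in full medium, and 32.7 to 38.8, 8.27 to 10.3 and 28.5 to 30.5 CPM after EBSS. The fibroblast list summed to 46.3 to 53.9, 53.9 to 54.3 and 20.8 to 23.4 CPM in full medium and to 39.1 to 43.4, 43.8 to 56.7 and 14.8 to 17.3 CPM after EBSS, in the same order of lines. The epithelial list summed to 102 to 113, 62.5 to 67 and 71.8 to 81.8 CPM in full medium and to 116 to 122, 59.6 to 66.7 and 85.6 to 96.2 CPM after EBSS. Their part in the results was not tested. For 10 members (MCM2, MCM7, GINS2, PRIM1, RFC4, FEN1, LIG1, RRM1, TYMS and CCNE2) exons overlap a gene on the opposite strand, and ORC1, PCNA, RFC3, FEN1, RRM2 and TYMS have pseudogenes named after them. How the counting treated strand is not given in the sources used here, so the values of these genes are less certain.

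The first comparison set WT cells after 6 h of EBSS against WT cells in full medium. The whole medium was changed, so effects of losing serum, amino acids or other components cannot be told apart. Levels are CPM scaled by edgeR's TMM method, and differences are log2 fold changes with their SE. Calls rest on edgeR's quasi-likelihood test, with p-values adjusted over all 15179 genes by the Benjamini-Hochberg method and a threshold of 0.05. In WT, 20 of the 34 members rose and 5 fell. Over all genes tested, 64.5% were called, 32.4% higher and 32.1% lower. The members' median log2 fold change was 0.22, against -0.02 for all genes. Under upper-quartile scaling, which moved the median of all genes to -0.17 in each line, 15 members rose and 10 fell. The added falls were those of GINS1 (-0.28), CCNE1 (-0.33), TK1 (-0.34), MCM10 (-0.18) and FEN1 (-0.13). The shares above are from TMM scaling, and the shares of all genes called each way under upper-quartile scaling are not given here for any line. In bulk RNA, fewer cells in a state and less RNA per cell cannot be told apart, and no value here gives a cell-cycle phase.

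Licensing genes held the member with the strongest rise. CDT1, which carries the MCM ring to origins, stood at 115, 101 and 96.9 CPM in the 3 WT libraries in full medium and at 273, 263 and 319 CPM after EBSS. Every starved library was more than double every fed one, and the log2 fold change was 1.45 ± 0.11 (adjusted p = 3.18e-10). ORC6, a subunit of the origin recognition complex, stood at 60.7, 65.8 and 66.0 CPM in full medium and at 109, 112 and 106 CPM after EBSS (0.76 ± 0.06, adjusted p = 1.28e-12). These groups also lay well apart. ORC1, the largest subunit of the same complex, rose by 0.51 ± 0.07. CDC6, the partner of CDT1 in loading the ring, went the other way, with 117, 119 and 133 CPM in full medium and 103, 108 and 98.0 CPM after EBSS. Its groups did not overlap and it fell by 0.26 on the log2 scale (SE 0.06, adjusted p = 0.000823). Of the helicase ring itself, MCM2, MCM3, MCM4 and MCM7 rose by 0.31, 0.29, 0.23 and 0.36, while MCM5 (0.13 ± 0.07) and MCM6 (0.04 ± 0.06) did not pass the test. In all, 7 of the 10 licensing genes rose and 1 fell, with a median of 0.30.

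Reads of the loading partners can also be compared within each library, where scaling between libraries plays no part. Such a ratio does not show which of the 2 genes moved, so the fall of CDC6 rests on the scaled levels above. The ratio was taken with results of these data known. Reads of CDT1 per read of CDC6 were 0.977, 0.852 and 0.727 in WT in full medium and 2.64, 2.44 and 3.25 after EBSS. The corresponding means were 0.672 and 2.59 in ATG7KO and 0.741 and 2.86 in RB1CC1KO-labelled cells. In all 3 lines the lowest ratio after EBSS, 2.24 in RB1CC1KO-labelled replicate 2, exceeded the highest ratio in full medium. These are ratios of reads, not of molecules, since the transcripts differ in length. Geminin (GMNN), the inhibitor that binds CDT1, also rose in all 3 lines (0.56 ± 0.07 in WT), and the ratio of CDT1 to GMNN reads went from a mean of 1.57 ± 0.148 (SD, n = 3) to 2.96 ± 0.693 in WT.

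**Figure D1:**
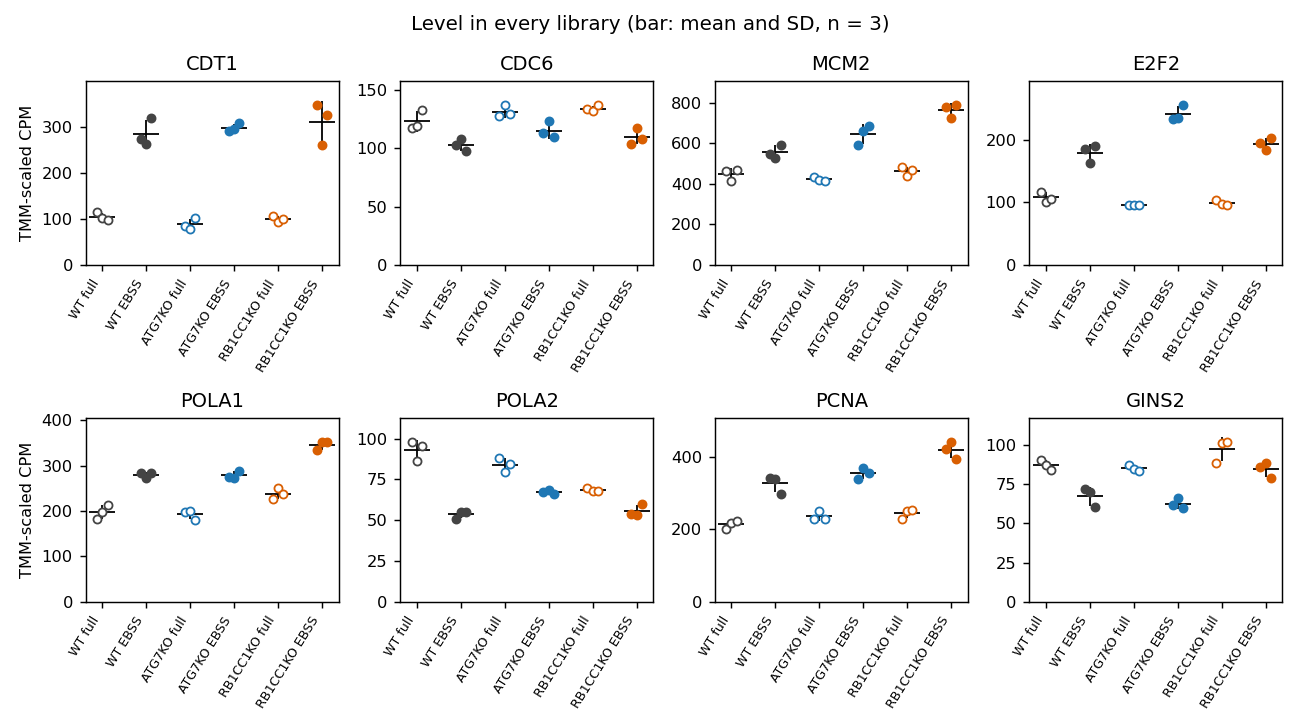
Levels of 8 members in every library, as TMM-scaled CPM on axes that start at 0, for the 3 lines in full medium (open points) and after 6 h of EBSS (filled points); bars give the mean and SD of 3 libraries. CDT1, MCM2, E2F2, POLA1 and PCNA lie higher after EBSS in each line, and CDC6, POLA2 and GINS2 lie lower.

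Helicase activators were divided. GINS2, a subunit of the GINS complex, stood at 90.6, 87.4 and 84.2 CPM in full medium and at 71.6, 69.7 and 60.3 CPM after EBSS. The groups were separate and the gene fell by 0.38 on the log2 scale (SE 0.07, adjusted p = 1.85e-05). CDC45, which travels with GINS and the MCM ring, stood at 76.2, 76.4 and 84.2 CPM and then at 93.4, 100.0 and 90.1 CPM (0.26 ± 0.07, adjusted p = 0.000941), and GINS3 rose by 0.20 ± 0.08. Under upper-quartile scaling CDC45 (0.11) and GINS3 (0.05) were not called. GINS1 (-0.13 ± 0.06) and MCM10, which helps to start the helicase (-0.03 ± 0.06), did not pass. Thus 2 of 5 rose, 1 fell and the median was -0.03.

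The 2 subunits of DNA polymerase alpha, which with primase lays down the first stretch of each new strand, moved apart. POLA1, the catalytic subunit, stood at 183, 197 and 213 CPM in full medium and at 284, 274 and 283 CPM after EBSS (0.50 ± 0.06, adjusted p = 4.7e-09). POLA2, the accessory subunit, stood at 98.1, 86.5 and 95.2 CPM and then at 50.8, 54.9 and 55.2 CPM. All starved libraries were higher than all fed ones for POLA1 and lower for POLA2, which fell to 57.6% of its level (-0.80 ± 0.07, adjusted p = 1.69e-12). The reads of POLA1 per read of POLA2 went from 1.87, 2.28 and 2.23 to 5.59, 5.00 and 5.13 in WT. They went from a mean of 2.31 to 4.15 in ATG7KO and from 3.47 to 6.24 in RB1CC1KO-labelled cells, again with no overlap. PRIM1, the catalytic subunit of primase, stood between them at 0.03 ± 0.09 and did not pass.

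**Figure D2:**
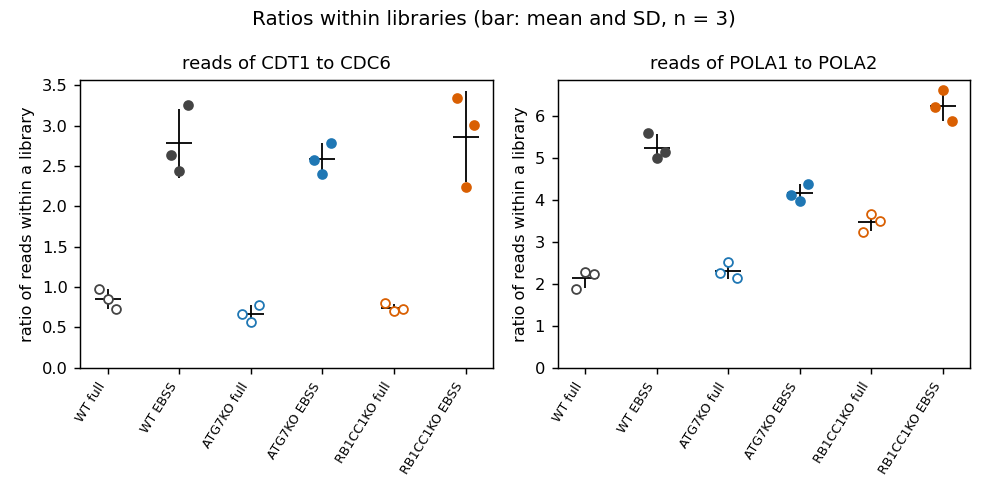
Reads of CDT1 per read of CDC6 (left) and of POLA1 per read of POLA2 (right) in each of the 18 libraries, on linear axes from 0; bars give the mean and SD of 3 libraries. In each line all starved libraries (filled) lie above all fed ones (open), and in full medium the POLA1 to POLA2 ratio of RB1CC1KO-labelled cells (mean 3.47) lies above those of WT (2.13) and ATG7KO (2.31).

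Among the clamp and lagging strand genes, PCNA, the sliding clamp that holds the polymerases on DNA, stood at 201, 218 and 223 CPM in full medium and at 342, 338 and 297 CPM after EBSS. The lowest starved library was above the highest fed one (0.61 ± 0.06, adjusted p = 3.91e-10). Of the clamp loader subunits, RFC4 rose (0.35 ± 0.07), RFC3 fell (-0.15 ± 0.07) and RFC2 (0.04 ± 0.06) did not pass. LIG1, the ligase that seals Okazaki fragments, rose by 0.17 ± 0.06. FEN1, the nuclease that trims their flaps, stood at 155 to 171 CPM in full medium and 162 to 169 CPM after EBSS, which overlap, and passed only under upper-quartile scaling. Across these 9 genes 4 rose and 2 fell.

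Deoxynucleotide supply showed small changes. TYMS, which makes thymidylate, stood at 258, 283 and 269 CPM and then at 345, 350 and 337 CPM (0.35 ± 0.06, adjusted p = 1.33e-06). RRM1, the large subunit of ribonucleotide reductase, stood at 307, 324 and 347 CPM and then at 429, 411 and 392 CPM (0.33 ± 0.06, adjusted p = 1.37e-05). Neither gene's groups overlapped. RRM2, the small subunit of the same enzyme, fell by 0.14 on the log2 scale (SE 0.05), and TK1, the thymidine salvage kinase, gave -0.18 ± 0.09 and did not pass (adjusted p = 0.0809). TK1 was called lower under upper-quartile scaling (-0.34), without the filter on low counts (-0.20) and without WT full replicate 2 (-0.25).

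Of the 6 G1/S regulators, 5 rose and none fell, with a median of 0.52. E2F2 stood at 117, 101 and 106 CPM in full medium and at 185, 163 and 190 CPM after EBSS (0.73 ± 0.07, adjusted p = 7.31e-12). E2F1, a second activating member of the family, stood at 62.6, 52.2 and 59.1 CPM and then at 90.4, 87.7 and 98.2 CPM (0.67 ± 0.07, adjusted p = 3.53e-10). Both genes were higher in every starved library than in every fed one. CDC25A, the phosphatase that activates cyclin-dependent kinases, rose by 0.39 ± 0.06, and SLBP, the histone mRNA binding protein, by 0.21 ± 0.06. The cyclins E, which activate CDK2, were unlike each other: CCNE2 rose by 0.64 ± 0.09, while CCNE1 gave -0.17 ± 0.08 and did not pass.

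Of the 20 rises in WT, 15 were called under every alternative tried, as were the falls of CDC6, GINS2 and POLA2. Upper-quartile scaling ended the calls of MCM4 (0.08), CDC45, GINS3, LIG1 (0.02) and SLBP (0.06), DESeq2 that of GINS3 (0.19), and testing without the filter on low counts those of GINS3 (0.18), LIG1 (0.16) and RFC3 (-0.16). Leaving out 1 library likewise ended the call of GINS3 (0.19 without WT full replicate 1, 0.16 without replicate 2, 0.14 without WT EBSS replicate 1, 0.21 without replicate 2) and of LIG1 (0.14 without WT full replicate 3, 0.16 without WT EBSS replicate 2, 0.14 without replicate 3). It also ended the calls of RFC3 (-0.12 without WT full replicate 2 or without WT EBSS replicate 2 or 3) and RRM2 (-0.12 without WT full replicate 2, -0.13 without WT EBSS replicate 2, -0.11 without replicate 3). Leaving out 1 library added calls for MCM5 (0.18 without WT full replicate 1, 0.17 without WT EBSS replicate 2), GINS1 (-0.18 without WT full replicate 3 or WT EBSS replicate 1) and CCNE1 (-0.24 without WT EBSS replicate 1).

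Promoter sequences were read because many of these genes are known E2F targets, and the set below shows genes that moved in both directions. RefSeq promoters (GRCh38.p14) had an entry for 31 of the 34 members, and MCM4, MCM5 and CCNE2 had none. The 250 bases before each start were searched on both strands for TTTGGCGC, TTTCGCGC, TTTCCCGC, TTTGCCGC and TTTGGCGG, which can overlap one another. The last of these was added after the first search had been seen. A symbol with more than 1 entry, as 5 members had, counted if any entry held a word. PCNA had 2 entries, and the first is printed below. At least 1 of the 5 words was in 16 of the 31 members (51.6%), against 1096 of 27305 symbols in the whole table (4.01%). The whole table was not limited to genes that passed the filter on low counts, whereas all members had passed it. The share among the genes tested is not given here, so the contrast with comparably expressed genes was not tested. Without that added word the numbers were 14 of 31 members (45.2%) and 928 of 27305 symbols (3.4%), and CDC6 and CDC45 matched only by it. By role, 5 of 8 licensing genes, 2 of 5 helicase activators, 5 of 9 priming, clamp and lagging strand genes, 1 of 4 deoxynucleotide supply genes and 3 of 5 regulators held at least 1 of the 5 words. So did 8 of 27 further replication factors (29.6%) and 3 of 16 further G1/S control genes (18.8%). The 150 bases before the start are printed for CDT1, E2F1 and PCNA, which rose in WT, and for CDC6, GINS2 and POLA2, which fell, 5′ to 3′ on the strand of the gene, with matches on either strand in capitals.
CDT1, chr16:88803639-88803788, plus strand: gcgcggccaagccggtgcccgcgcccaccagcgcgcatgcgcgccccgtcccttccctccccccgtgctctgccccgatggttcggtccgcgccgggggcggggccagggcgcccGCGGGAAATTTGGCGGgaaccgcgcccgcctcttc
E2F1, chr20:33686386-33686535, minus strand: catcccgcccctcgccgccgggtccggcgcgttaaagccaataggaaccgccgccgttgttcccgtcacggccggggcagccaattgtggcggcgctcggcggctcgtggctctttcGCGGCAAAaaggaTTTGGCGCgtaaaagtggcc
PCNA, chr20:5126623-5126772, minus strand: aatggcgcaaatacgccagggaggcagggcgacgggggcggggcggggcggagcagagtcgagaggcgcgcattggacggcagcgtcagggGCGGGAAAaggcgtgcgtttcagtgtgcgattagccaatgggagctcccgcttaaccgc
CDC6, chr17:40287729-40287878, plus strand: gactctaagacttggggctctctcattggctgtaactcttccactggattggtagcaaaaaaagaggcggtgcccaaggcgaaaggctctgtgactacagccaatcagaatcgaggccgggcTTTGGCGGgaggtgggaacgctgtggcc
GINS2, chr16:85688955-85689104, minus strand: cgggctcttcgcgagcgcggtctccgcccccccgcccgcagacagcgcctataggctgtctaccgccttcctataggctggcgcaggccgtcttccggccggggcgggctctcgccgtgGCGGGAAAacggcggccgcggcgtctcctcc
POLA2, chr11:65261812-65261961, plus strand: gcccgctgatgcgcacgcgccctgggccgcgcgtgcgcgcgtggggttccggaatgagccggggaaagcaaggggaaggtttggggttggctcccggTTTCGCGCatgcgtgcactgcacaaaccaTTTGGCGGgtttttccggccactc

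CDT1 held TTTCCCGC on the minus strand 35 to 28 bases before the start, directly followed by TTTGGCGG 27 to 20 bases before it. CDC6, whose RNA went the other way, held TTTGGCGG at nearly the same place, 28 to 21 bases before the start. POLA2, the member that fell furthest in WT, held 1 match 53 to 46 and another 24 to 17 bases before the start. Of the other members, MCM6 held 4 matches, 2 pairs that overlap each other. The words were thus in promoters of genes that rose, fell and did not pass, and a match is a description of the sequence only.

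The same comparison was made in the line labelled ATG7KO. Here 24 members rose and 7 fell (62.9% of all genes tested were called, 32.3% higher and 30.6% lower), with a median of 0.31 against -0.01 for all genes. Upper-quartile scaling gave 18 higher and 7 lower. All 10 licensing genes were called, 9 of them higher, with a median of 0.55. CDT1 went from 84.8, 78.3 and 101 CPM to 290, 295 and 307 CPM (1.76 ± 0.11, adjusted p = 2.1e-11). E2F2 went from 95.1, 96.2 and 95.3 CPM to 232, 234 and 255 CPM (1.33 ± 0.07, adjusted p = 1.31e-18), with a wide gap between fed and starved libraries. The falls were those of CDC6, GINS1, GINS2, POLA2, RFC3, RRM2 and CCNE1, and the largest were those of CCNE1 (-0.45 ± 0.09) and GINS2 (-0.44 ± 0.07). PRIM1, FEN1 and TK1 did not pass, but TK1 (0.21 ± 0.09) was called higher without ATG7KO full replicate 3 (0.28) and without ATG7KO EBSS replicate 1 (0.25).

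In ATG7KO, the calls of MCM6, MCM10, CDC45, GINS3, RFC2 and TYMS ended under upper-quartile scaling, with log2 fold changes of 0.02, -0.02, 0.03, 0.13, 0.04 and 0.05. MCM10 was also lost with DESeq2 (0.12) and without the filter on low counts (0.12), as was CDC45 without the filter (0.18). The EBSS group of this line holds the shallowest library, and without that library CDC6 (-0.15) and GINS1 (-0.15) lost their calls. Without ATG7KO EBSS replicate 2 the calls of MCM6 (0.10), MCM10 (0.09), CDC45 (0.11), GINS3 (0.14), RFC2 (0.11) and TYMS (0.12) ended, and without EBSS replicate 1 that of MCM10 (0.07). Without ATG7KO full replicate 2 CDC6 (-0.15) and CDC45 (0.17) lost theirs, without full replicate 3 MCM6 (0.14), MCM10 (0.12) and GINS1 (-0.15), and without full replicate 1 MCM10 (0.12).

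In RB1CC1KO-labelled cells 24 members rose and 6 fell (65.1% of all genes tested were called, 31.9% higher and 33.3% lower), with a median of 0.30 against -0.03. With upper-quartile scaling 17 were higher and 9 lower. CDT1 went from 107, 92.5 and 99.0 CPM to 347, 261 and 325 CPM (1.65 ± 0.11, adjusted p = 3.58e-11). ORC6 went from 60.9, 64.0 and 64.1 CPM to 138, 135 and 120 CPM (1.06 ± 0.06, adjusted p = 1.15e-16). Starved and fed libraries were separate for both genes. PCNA rose by 0.77 ± 0.06, and the falls were those of CDC6, GINS1, GINS2, POLA2, RFC3 and CCNE1, between -0.20 and -0.31. The calls of MCM6, CDC45, RFC2, RFC4, RRM1, TK1 and SLBP ended under upper-quartile scaling, at 0.07, 0.13, 0.13, 0.06, 0.10, 0.17 and 0.10. Without 1 library the calls of GINS2 (-0.17 without RB1CC1KO full replicate 2, -0.15 without replicate 3, -0.16 without EBSS replicate 3), RFC3 (-0.16 without EBSS replicate 3), RFC4 (0.17 without EBSS replicate 1, 0.15 without replicate 2) and CCNE1 (-0.20 without full replicate 3) ended.

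**Figure D3:**
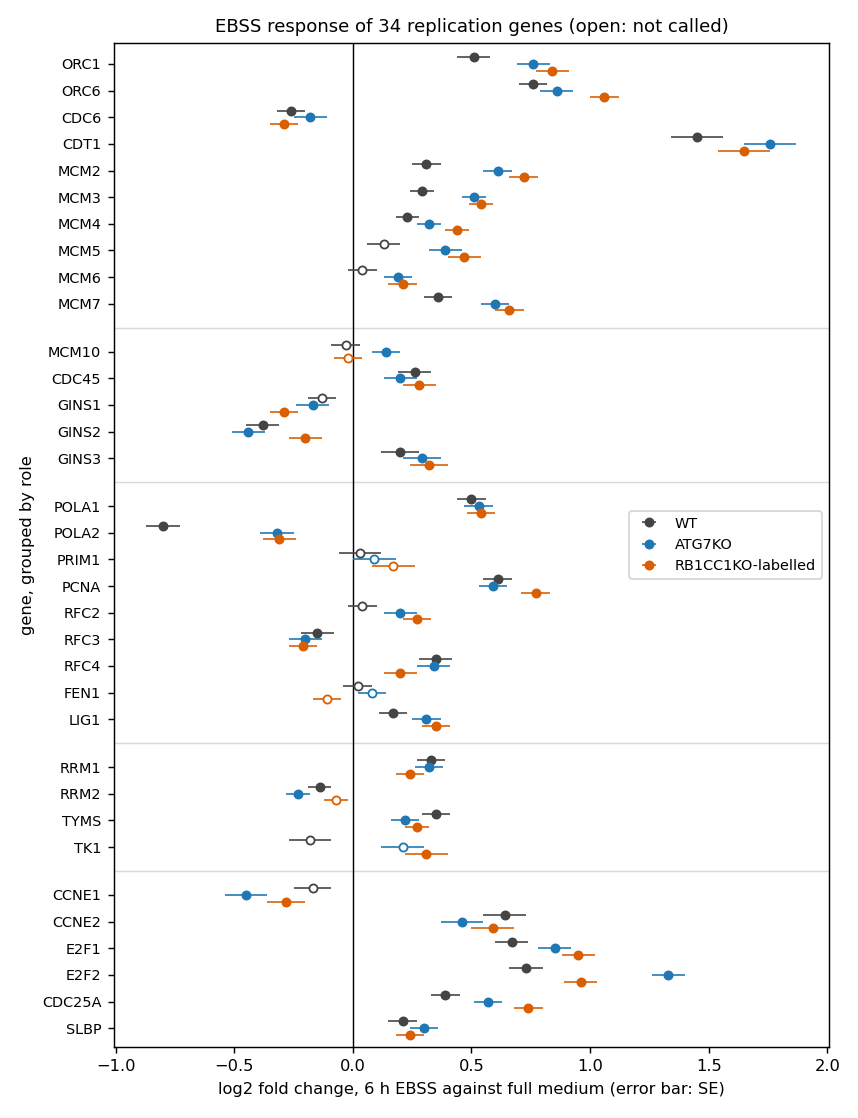
Log2 fold change of each of the 34 members after 6 h of EBSS against full medium, with SE bars, in WT, ATG7KO and RB1CC1KO-labelled cells; rows are grouped by role and open points were not called. CDT1 lies farthest to the right among the licensing genes in every line, from 1.45 to 1.76, and POLA2 lies farthest to the left in WT, at -0.80.

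The 3 responses share no library, so their directions can be set side by side. In all 3 lines 20 members rose: ORC1, ORC6, CDT1, MCM2, MCM3, MCM4, MCM7, CDC45, GINS3, POLA1, PCNA, RFC4, LIG1, RRM1, TYMS, CCNE2, E2F1, E2F2, CDC25A and SLBP. Of these shared rises, those of MCM4, CDC45, GINS3, LIG1, SLBP, TYMS, RFC4 and RRM1 were not called in at least 1 line under upper-quartile scaling. In all 3 lines CDC6, GINS2, POLA2 and RFC3 fell. Of all genes tested, 25.2% were called higher in all 3 lines and 23.3% lower in all 3. A further 5 members (MCM5, MCM6, MCM10, RFC2 and TK1) rose in 1 or 2 lines and fell in none, and GINS1, RRM2 and CCNE1 fell in 1 or 2 lines and rose in none. These calls are from the main fit, edgeR with TMM scaling and the filter on low counts. In that fit 0 members were called in opposite directions in 2 lines (0.613% of all genes tested were). PRIM1 and FEN1 were called in no line there (19.8% of all genes tested were not). TK1 was the exception under other settings: without the filter it was called lower in WT (-0.20) and higher in RB1CC1KO-labelled cells (0.30). With the replicate number as a block, TK1 was likewise called lower in WT (-0.19) and higher in ATG7KO (0.22). PRIM1 was called higher in RB1CC1KO-labelled cells without full replicate 2 (0.25). Under upper-quartile scaling FEN1 was lower in WT (-0.13) and RB1CC1KO-labelled cells (-0.26), RRM2 was lower in RB1CC1KO-labelled cells (-0.21), and MCM10 was lower in WT (-0.18) and RB1CC1KO-labelled cells (-0.16) and not called in ATG7KO. That scaling also called TK1 lower in WT (-0.34). The members' levels summed to 6279, 6164 and 6397 CPM in WT in full medium and to 7596, 7416 and 7480 CPM after EBSS. The sum went from a mean of 6168 ± 72.2 CPM (SD, n = 3) to 8015 ± 207 CPM in ATG7KO and from 6437 ± 19.8 to 8673 ± 83.2 CPM in RB1CC1KO-labelled cells, so that all 9 starved libraries lay above all 9 fed ones. Such a sum gives most weight to abundant members such as MCM4, MCM7, RRM2 and MCM2, and it was taken with TMM scaling only.

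Other genes of the same pathways, from lists of 35 further replication factors and 23 further G1/S control genes that were all tested, were also called in both directions. Their counts stand beside 32.4% higher and 32.1% lower for all genes tested in WT. Of the replication factors 14 rose and 10 fell in WT, 13 and 10 in ATG7KO, and 13 and 11 in RB1CC1KO-labelled cells, with medians of 0.01, 0.09 and 0.07. The 4 with the smallest p in WT were GINS4, the remaining GINS subunit, which fell from 79.4 ± 3.14 to 30.4 ± 0.699 CPM (-1.38 ± 0.07), DNA2, a flap nuclease (1.28 ± 0.08), RFC1, the large clamp loader subunit (0.88 ± 0.07), and TOPBP1, which helps to fire origins (0.64 ± 0.06). Of the G1/S control genes 11 rose and 7 fell in WT, 12 and 8 in ATG7KO, and 9 and 4 in RB1CC1KO-labelled cells. CDKN1B, which encodes the inhibitor p27, rose from 68.4 ± 2.88 to 159 ± 3.58 CPM in WT (1.22 ± 0.06). The D-type cyclin CCND2 (1.04 ± 0.10) and RB1, the gene of the RB protein (0.60 ± 0.07), also rose, and CDKN1A, which encodes the inhibitor p21, fell (-0.91 ± 0.08).

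The next comparison asked whether the lines already differed from WT in full medium. Both knockout comparisons use the same WT libraries. In ATG7KO 0 of the 34 members were called by edgeR's quasi-likelihood test, against 10.5% of all genes tested, 4.47% higher and 6.07% lower. DESeq2 also called 0, and 9 members had an unadjusted p under 0.05. The log2 differences ran from -0.25 to 0.22 and the lowest adjusted p was 0.0881, for E2F2 (-0.18 ± 0.07). CDT1 stood at 84.8, 78.3 and 101 CPM against 115, 101 and 96.9 CPM in WT, which overlap (-0.25 ± 0.11, adjusted p = 0.172). TK1 stood at 55.5, 50.4 and 61.6 CPM against 70.6, 60.0 and 65.8 CPM, which also overlap (-0.23 ± 0.09, adjusted p = 0.12). CCNE2, at 37.6, 41.2 and 37.4 CPM against 31.0, 33.5 and 35.4 CPM (0.22 ± 0.09, adjusted p = 0.127), and PRIM1, at 41.3, 41.1 and 40.6 CPM against 33.3, 37.9 and 37.3 CPM (0.18 ± 0.09, adjusted p = 0.222), were higher in every ATG7KO library without passing the test. GINS3 showed the least shift of these, with 33.7, 31.2 and 31.9 CPM against 30.7, 29.5 and 32.4 CPM (0.07 ± 0.08, adjusted p = 0.682). CDT1 passed without the filter on low counts (-0.24) and without ATG7KO full replicate 3 (-0.35), and E2F2 without WT full replicate 2 (-0.22).

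RB1CC1KO-labelled cells differed in 8 members in full medium, 5 higher and 3 lower, with 17.2% of all genes tested called, 8.3% higher and 8.87% lower. POLA2 was lower, at 70.0, 68.0 and 67.9 CPM against 98.1, 86.5 and 95.2 CPM in WT (-0.44 ± 0.07, adjusted p = 4.47e-06). The groups lay far apart, and POLA1 was higher in the same cells (227, 250 and 237 CPM, 0.27 ± 0.06, adjusted p = 0.00139). E2F1 was lower, at 46.9, 44.9 and 48.5 CPM against 62.6, 52.2 and 59.1 CPM (-0.30 ± 0.07, adjusted p = 0.00276), and TYMS was higher, at 306, 335 and 319 CPM against 258, 283 and 269 CPM (0.24 ± 0.06, adjusted p = 0.00154). These 4 calls held in every alternative, and none of the 4 pairs of groups overlapped. MCM5 was lower, at 267, 220 and 239 CPM against 307, 266 and 288 CPM, with 1 library overlapping (-0.25 ± 0.07, adjusted p = 0.00972). CDC45 (0.21 ± 0.07), PCNA (0.20 ± 0.06) and RFC4 (0.25 ± 0.07) were higher. GINS3, at 36.4, 35.4 and 35.9 CPM against 30.7, 29.5 and 32.4 CPM, was higher in every library but did not pass (0.22 ± 0.08, adjusted p = 0.0569).

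The calls of MCM5, CDC45, PCNA and RFC4 were lost when certain libraries were left out. MCM5 lost its call without WT full replicate 1 (-0.20) or RB1CC1KO full replicate 2 (-0.20). CDC45 lost it without WT full replicate 1 or 2 (0.19 each) or RB1CC1KO full replicate 1 (0.15) or 3 (0.19). PCNA lost it without WT full replicate 1 (0.15), 2 (0.21) or 3 (0.20) or RB1CC1KO full replicate 2 (0.16) or 3 (0.15), and under upper-quartile scaling (0.18). RFC4 lost it without WT full replicate 1 (0.21) or 3 (0.25) or RB1CC1KO full replicate 2 (0.24) or 3 (0.20).

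After EBSS, 9 members were higher and 1 lower in ATG7KO than in WT (13.2% of all genes tested were called, 6.07% higher and 7.17% lower). The median difference was 0.13 against 0.01 for all genes. E2F2 stood at 232, 234 and 255 CPM against 185, 163 and 190 CPM (0.42 ± 0.07, adjusted p = 8.97e-06) and POLA2 at 67.2, 68.7 and 66.0 CPM against 50.8, 54.9 and 55.2 CPM (0.33 ± 0.07, adjusted p = 0.00091). CCNE1 was lower, at 23.3, 23.4 and 20.8 CPM against 30.5, 30.4 and 26.3 CPM (-0.35 ± 0.09, adjusted p = 0.00707). The libraries of the 2 lines did not overlap for these 3 genes, whose calls held in every alternative. ORC1, MCM2, MCM3, MCM6, MCM10, RFC2 and E2F1 were higher by 0.16 to 0.22. In each of the 6 fits that left out 1 library MCM3 (0.13 to 0.17), MCM6 (0.12 to 0.19) and RFC2 (0.14 to 0.21) lost their calls, and they did so without the filter on low counts, as did E2F1 (0.22). ORC1 (0.15 to 0.25) kept its call only without ATG7KO EBSS replicate 1, and E2F1 (0.18 to 0.27) only without WT EBSS replicate 3. MCM2 lost its call without WT EBSS replicate 1 (0.18) or 2 (0.18) or ATG7KO EBSS replicate 2 (0.17) or 3 (0.17), and MCM10 without WT EBSS replicate 3 (0.19) or ATG7KO EBSS replicate 1 (0.17) or 2 (0.20).

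RB1CC1KO-labelled cells stood further from the same starved WT libraries, with 19 members higher and 1, GINS1, lower (31.6% of all genes tested were called, 14.8% higher and 16.9% lower). The median difference was 0.17 against 0.00. Of the licensing genes 7 of 10 were higher and none lower. CDC25A stood at 234, 234 and 240 CPM against 169, 158 and 167 CPM in WT (0.52 ± 0.06, adjusted p = 1.28e-08), MCM2 at 776, 723 and 788 CPM against 549, 529 and 592 CPM (0.45 ± 0.06, adjusted p = 5.41e-07), and PCNA at 422, 441 and 393 CPM against 342, 338 and 297 CPM (0.36 ± 0.06, adjusted p = 2.77e-05). None of these groups overlapped. The 13 higher calls of ORC1, ORC6, MCM2, MCM3, MCM4, MCM7, CDC45, GINS2, GINS3, POLA1, PCNA, LIG1 and CDC25A held in every alternative. POLA2, lower in this line in full medium, was at 53.7, 53.1 and 60.1 CPM against 50.8, 54.9 and 55.2 CPM and did not pass (0.05 ± 0.07, adjusted p = 0.628).

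The calls lost without 1 library in that comparison were 7. They were those of MCM6 (0.15 without WT EBSS replicate 3, 0.14 without RB1CC1KO EBSS replicate 2), MCM10 (0.17 without WT EBSS replicate 2, 0.15 without replicate 3 or without RB1CC1KO EBSS replicate 2), RFC2 (0.14) and TYMS (0.15), both without WT EBSS replicate 3, and SLBP (0.17 without WT EBSS replicate 2, 0.14 without replicate 3). TK1 lost its call without WT EBSS replicate 2 (0.26) or RB1CC1KO EBSS replicate 1 (0.25). GINS1 lost it without WT EBSS replicate 1 (-0.13) or 2 (-0.14) or RB1CC1KO EBSS replicate 1 (-0.16) or 3 (-0.12), and with DESeq2 (-0.15). Testing without the filter on low counts ended the calls of MCM6, MCM10, GINS1, RFC2, TYMS and SLBP at nearly the same values, between -0.17 and 0.19.

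**Figure D4:**
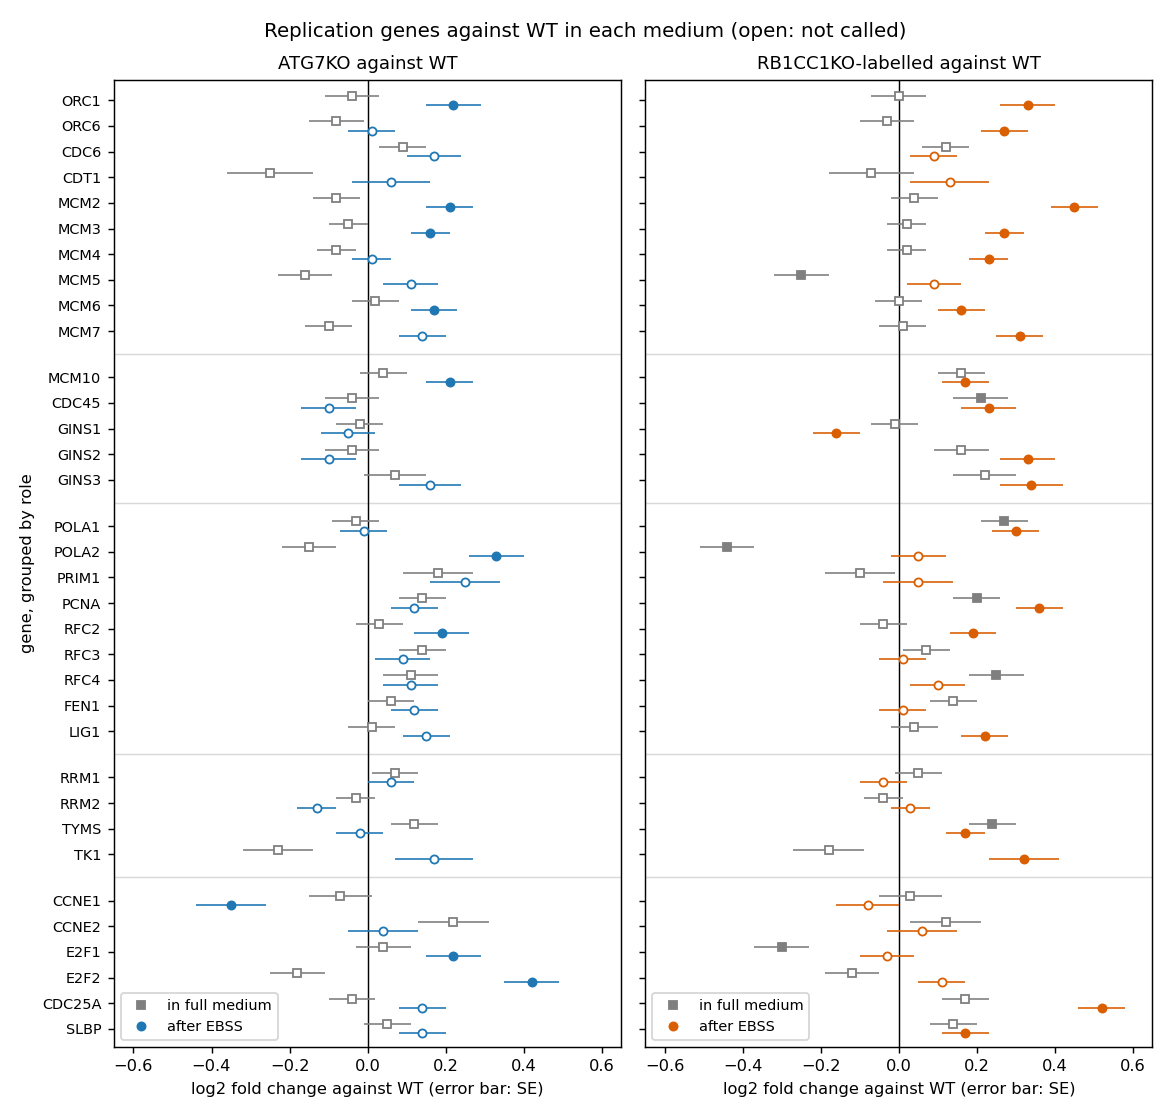
Log2 difference of each member between ATG7KO (left) or RB1CC1KO-labelled cells (right) and WT, with SE bars, in full medium (grey squares) and after EBSS (coloured circles); open symbols were not called. In ATG7KO all squares are open, and after EBSS 9 filled circles lie to the right of 0 in ATG7KO and 19 in RB1CC1KO-labelled cells.

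Whether the EBSS response itself differed from that of WT was tested as a difference of differences. Both tests share the WT libraries. For ATG7KO 2 members were called (1.05% of all genes tested were, 0.369% higher and 0.685% lower), both with a higher value than in WT. E2F2 rose more, 1.33 against 0.73, a difference of 0.60 ± 0.09 (adjusted p = 0.000231) that was called in all 12 fits that left out 1 library. POLA2 fell less, -0.32 against -0.80, a difference of 0.48 ± 0.10 (adjusted p = 0.00621), and without WT EBSS replicate 1 it was not called (0.42, adjusted p = 0.0558). For CDT1 the difference was 0.31 ± 0.15 and did not pass (adjusted p = 0.35).

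For RB1CC1KO-labelled cells 9 members were called, all with a higher value than in WT, against 8.16% of all genes tested, of which 2.68% were higher and 5.47% lower. The median difference over the 34 members was 0.17, against -0.02 for all genes. Of the 9, 6 were licensing genes: ORC1 (0.33 ± 0.09), ORC6 (0.30 ± 0.09), MCM2 (0.41 ± 0.09), MCM3 (0.25 ± 0.07), MCM5 (0.33 ± 0.10) and MCM7 (0.30 ± 0.08). The others were POLA2 (0.49 ± 0.10), CDC25A (0.35 ± 0.08) and TK1 (0.50 ± 0.13). TK1 stood at 62.7, 54.8 and 55.2 CPM in full medium and at 79.9, 62.1 and 73.0 CPM after EBSS in these cells, while in WT it went from 70.6, 60.0 and 65.8 CPM to 58.5, 53.1 and 60.9 CPM. Fed and starved libraries of TK1 overlapped within each line, and the test of the difference gave an adjusted p of 0.0144. POLA2 fell in both lines, by 0.80 in WT and by 0.31 here on the log2 scale, from a lower starting level here, and the starved levels did not differ by the test above.

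The differences of MCM2 (adjusted p = 0.0024), POLA2 (adjusted p = 0.000802) and CDC25A (adjusted p = 0.00635) held in every alternative. Without WT full replicate 1 the differences of ORC1 (0.32), MCM3 (0.25), MCM5 (0.28), MCM7 (0.27) and TK1 (0.44) were not called, and without WT EBSS replicate 2 those of ORC1 (0.32), MCM3 (0.25), MCM5 (0.29) and MCM7 (0.27) were not. ORC6 (0.27 to 0.35 over 12 fits) lost its call without WT full replicate 2, WT EBSS replicate 3, RB1CC1KO full replicate 1 or RB1CC1KO EBSS replicate 1 or 2, and without the filter on low counts (0.30). MCM3 (0.22 to 0.29) also lost it without WT full replicate 3, WT EBSS replicate 3, RB1CC1KO full replicate 1 or RB1CC1KO EBSS replicate 2 or 3 or without the filter (0.25), and MCM5 (0.28 to 0.41) without RB1CC1KO full replicate 2 or EBSS replicate 3.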

How the data were processed

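RNA-seq counts per gene of 18 libraries were analysed, 3 for each of 6 groups. The authors deposited whole-number read counts for 63677 Ensembl identifiers and 5 summary lines per library, which were left out. Unassigned reads without a feature were 9.39 to 15.1% of each library. The kit was directional and reads were 75 bp, single-end, per the labels' protocols. Per the submitters' processing notes, the tools included HTSeq 0.6.1p1, STAR 2.4.2a and Picard, with edgeR and DESeq2, and the builds GRCh37 and hg19, with no role or order stated. Neither the annotation release nor the strand setting is given in the sources used here. Symbols came from GENCODE 29, a GRCh38 annotation used for names and overlaps only, and matched 52526 identifiers.

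Counts were fitted with edgeR 4.0.16 in R 4.3.3 (filterByExpr, TMM, 1 mean per group over all 18 libraries, robust quasi-likelihood), with Benjamini-Hochberg adjustment over the 15179 genes tested. The common biological coefficient of variation was 6.72%. The SE of a log2 fold change is its size divided by the square root of the F statistic. Error was estimated in the same fit of all 18 libraries, so the groups, with 3 libraries each, shared 1 estimate of the spread of a gene. Within each group no library was a copy of another: chi-square per degree of freedom between replicates was 2.32 to 10.5. Libraries of different groups were not compared in this way. Alternatives were DESeq2 1.42.0, upper-quartile scaling, no filter, the replicate number as a block, and leaving out each library in turn.

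The members, roles, further gene lists and tests were chosen with earlier results of these data known. Library values are given for the 2 members per role with the largest change for EBSS in WT, the 1 per role with the largest difference of each line from WT in full medium, the 2 with the largest difference of responses, and for others that the text compares. Of each further list up to 4 genes with the smallest p are named. GMNN, the values of FEN1, and library values of CDC6, POLA1, CDC25A, MCM2 and CCNE1 were added after they were seen.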

Additional observations from a re-analysis of the deposited data

Results flagged for a closer look

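The results listed here are those in which the response to EBSS differed between a knockout-labelled line and WT by the direct test of that difference (edgeR's quasi-likelihood test). Both sets share the WT libraries. For ATG7KO minus WT these were POLA2, with a difference of 0.48 on the log2 scale, and E2F2, with 0.60. For RB1CC1KO-labelled cells minus WT they were ORC1 (0.33), ORC6 (0.30), MCM2 (0.41), MCM3 (0.25), MCM5 (0.33), MCM7 (0.30), POLA2 (0.49), TK1 (0.50) and CDC25A (0.35).

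Among the further replication and G1/S genes, CDKN1A, which encodes the inhibitor p21, gave the largest difference, 1.26 ± 0.11 (adjusted p = 9.67e-09). It stood at 157, 166 and 146 CPM in WT in full medium and at 80.0, 83.0 and 87.2 CPM after EBSS. In RB1CC1KO-labelled cells it went from 103, 111 and 101 CPM to 135, 133 and 133 CPM. It fell in WT and rose in the other line, with no overlap within either. ASF1B, a histone chaperone, gave -0.52 ± 0.11 and WDHD1, a factor that links the helicase to DNA polymerase alpha, gave -0.35 ± 0.09. ASF1B stood at 85.2 ± 8.45 and then 82.2 ± 4.96 CPM (SD, n = 3) in WT and fell from 73.3 ± 8.14 to 49.5 ± 1.79 CPM in RB1CC1KO-labelled cells. WDHD1 rose by 0.59 ± 0.07 in WT and by 0.24 ± 0.06 in the other line. Its difference was not called without WT full replicate 1 (-0.30), WT EBSS replicate 1 (-0.30), RB1CC1KO full replicate 2 (-0.30) or 3 (-0.28) or RB1CC1KO EBSS replicate 1 (-0.29).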

How the results depend on the processing

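The number of members called for EBSS was 25 in WT, 31 in ATG7KO and 30 in RB1CC1KO-labelled cells. It was 24, 30 and 30 with DESeq2, 25, 25 and 26 with upper-quartile scaling, 23, 29 and 30 without the filter, and 22 to 26, 25 to 31 and 28 to 30 without 1 library. For ATG7KO against WT in full medium the count was 0, and it was 1 without the filter and 0 to 1 without 1 library. For ATG7KO against WT after EBSS it was 10, with 6 without the filter and 3 to 5 without 1 library. For RB1CC1KO-labelled cells against WT it was 8 in full medium (5 to 8 without 1 library) and 20 after EBSS (15 to 19). The difference of responses gave 2 for ATG7KO (1 to 3) and 9 for RB1CC1KO-labelled cells (4 to 9). Over all genes, EBSS calls numbered 9788, 9554 and 9886 in the 3 lines. Without 1 library they numbered 9209 to 9396, 8729 to 9200 and 9323 to 9545. ATG7KO against WT gave 1599 in full medium (1070 to 1464) and 2010 after EBSS (1235 to 1922). RB1CC1KO-labelled cells gave 2606 (1745 to 2530) and 4803 (4028 to 4513). The differences gave 160 (71 to 275) and 1238 (788 to 1588). All-gene numbers for the other settings, the replicate block among them, are not given here.

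With the replicate block the counts were 26, 32 and 30 for EBSS, 2 and 10 in full medium, 10 and 20 after EBSS and 3 and 10 for the differences. The block added the calls of CDT1 (-0.25) and TK1 (-0.23) for ATG7KO in full medium, and for EBSS it called TK1 lower in WT (-0.19) and higher in ATG7KO (0.22) and RB1CC1KO-labelled cells (0.31). The labels do not say that a number marks a shared batch, and the numbers were not taken to pair the samples, since correlations of same-numbered libraries' deviations from their group means ran from -0.08 to 0.22.

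Members near 0 changed sign. Under upper-quartile scaling in WT these were MCM5 (-0.02), MCM6 (-0.11), PRIM1 (-0.13), RFC2 (-0.11) and FEN1 (-0.13), and in ATG7KO MCM10 (-0.02), PRIM1 (-0.07) and FEN1 (-0.08). Without 1 library PRIM1 ran from -0.07 to 0.15 in WT (below 0 without WT full replicate 1 or WT EBSS replicate 1 or 2), RFC2 from -0.02 to 0.09 (below 0 without WT EBSS replicate 1) and FEN1 from -0.03 to 0.04 (below 0 without WT full replicate 2 or WT EBSS replicate 1), and MCM10 from -0.04 to 0.01 in RB1CC1KO-labelled cells (above 0 without full replicate 2). Upper-quartile scaling also raised the number of falls in WT from 5 to 10. It moved the median of all genes in WT as well, from -0.02 to -0.17, so the shift was not particular to the members. Why the scalings differ was not tested. Of the members that changed sign, FEN1 in WT under upper-quartile scaling was the one that passed the test. The lowest count behind any member's value was 98 reads. Each group mean rests on at most 3 libraries, and the spread was estimated over all groups together.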

Other observations

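Beside the members, the further G1/S control genes held larger differences between the lines in full medium than any of the 34 genes did. E2F5, a repressive member of the E2F family, stood at 26.8, 26.4 and 26.8 CPM in WT and at 9.26, 9.29 and 9.71 CPM in RB1CC1KO-labelled cells (-1.50 ± 0.10, adjusted p = 4.29e-14). The gap was there in both media, with 40.0 ± 3.29 CPM (SD, n = 3) in WT and 15.9 ± 1.63 CPM in RB1CC1KO-labelled cells after EBSS. CCND1, the cyclin D1 gene, was low throughout, at 2.62 ± 0.48 CPM in WT, 6.82 ± 0.825 CPM in ATG7KO and 4.26 ± 0.492 CPM in RB1CC1KO-labelled cells in full medium. It was higher in ATG7KO than in WT by 1.35 ± 0.22 (adjusted p = 2.86e-05). CCND2 was higher in ATG7KO than in WT in full medium (0.88 ± 0.10, adjusted p = 1.13e-08). CDKN1A was lower in RB1CC1KO-labelled cells than in WT in full medium (-0.58 ± 0.08) and higher after EBSS (0.68 ± 0.08).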
